A study of Mus musculus with 4 samples.

Results

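Eng, Tgfb3 and Jag1 encode endoglin, transforming growth factor beta 3 and jagged 1, which belong to a pair of pathways that endothelial cells use to talk to their neighbours. They were taken by gene symbol from the authors' deposited table, each has 1 probe set there, and they make up 3 of the 398 probe sets listed and 3 of the 35557 transcript clusters (groups of probes along one gene) with values on all 4 arrays. The samples were labelled as endothelial cells of the mouse aorta (strain C57BL/6J) and hybridised to Affymetrix Mouse Gene 1.0 ST arrays. There were 2 arrays of hcatTg cells, in which human catalase, the peroxide-degrading enzyme, is overexpressed, and 2 arrays of wild type cells. Each array came from an independent RNA sample. Cells of both genotypes reached 80% confluence, spent 12 h in medium without serum and then 12 h in medium with 10% fetal bovine serum. The sources used here do not give the promoter of the transgene, the age of the mice or whether separate animals gave the RNA samples, and the spread between arrays may therefore be technical.

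Transforming growth factor beta ligands and the related bone morphogenetic proteins signal through pairs of serine-threonine kinase receptors, which phosphorylate SMAD proteins that then act on genes in the nucleus. Endoglin is a co-receptor of this system that is abundant on endothelium and works with the type I receptor ALK1, encoded by Acvrl1, and loss of either gene in humans causes hereditary haemorrhagic telangiectasia, a disease of malformed vessels. Tgfb3 encodes one of the secreted ligands, which is held latent in the matrix until it is activated. Jag1 encodes a membrane ligand that activates Notch receptors on the adjoining cell, and in mouse vessels endothelial Jag1 is needed for the smooth muscle coat.

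RefSeq promoter sequences were matched for 2 of the 3 genes, Eng and Jag1, and are shown because both genes were lower on the hcatTg arrays. Each runs 5′ to 3′ over the 250 bases before the start site (build GRCm38.p6; Eng at chr2:32646345-32646594 on the plus strand, Jag1 at chr2:137116521-137116770 on the minus strand), and capitals mark matches to CAGAC, the core of a SMAD binding element, on either strand.
Eng: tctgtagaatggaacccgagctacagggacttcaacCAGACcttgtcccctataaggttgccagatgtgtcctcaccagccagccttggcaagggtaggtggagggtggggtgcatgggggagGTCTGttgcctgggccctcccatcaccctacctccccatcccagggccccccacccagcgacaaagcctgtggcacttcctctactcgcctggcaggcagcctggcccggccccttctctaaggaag
Jag1: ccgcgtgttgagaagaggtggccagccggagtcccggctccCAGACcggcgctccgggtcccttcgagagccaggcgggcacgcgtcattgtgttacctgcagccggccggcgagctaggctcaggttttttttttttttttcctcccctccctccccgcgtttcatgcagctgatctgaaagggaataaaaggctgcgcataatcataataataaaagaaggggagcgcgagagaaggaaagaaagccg
The Eng window held 2 matches to CAGAC, starting 214 and 127 bases before the start site, and the Jag1 window held 1 match, starting 209 bases before it. The same letters occurred in 42.2% of all 32851 promoter windows of this length, so a match is common. Neither window held TGGGAA (the core bound by the Notch partner RBPJ, in 21.6% of all windows), TGACNNNGC (the antioxidant response element, 10.2%), TGANTCA (AP-1, 6.75%) or GGGCGG (Sp1, 32.7%), with both strands searched and no overlap between CAGAC and the other motifs. The windows differed in composition: Jag1 had 20 CpG dinucleotides and a GC content of 57.2%, and Eng had 4 CpG dinucleotides and a GC content of 62.4%, beside medians of 6 and 52.4% over all windows.

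The deposited values are log2 signals, and they were not on one distribution: the array medians were 5.40 and 6.00 on hcatTg arrays 1 and 2, against 5.75 and 6.02 on wild type arrays 1 and 2. The authors' deposited table sets hcatTg against wild type once for the first arrays and once for the second, under headings for a first and a second time, and the same array pairs are used here. The median hcatTg minus wild type difference over all clusters was -0.37 in the first pair and 0.01 in the second. Of the endothelial markers, the table names only Eng and Kdr, so the labelled cell type was set against these 2. Kdr lay below the array median on both wild type arrays (5.63 and 4.67) and above it on both hcatTg arrays (6.68 and 8.24). Eng lay above the median on every array, but it is one of the genes chosen for this report. Named markers of other cell types are given below, and they lay on both sides of the wild type medians. On both wild type arrays the mural marker Pdgfrb (9.79 and 11.18) and the mesothelial marker Upk3b (10.23 and 10.65) lay above the median. The mesothelial marker Msln (5.59 and 5.70) lay below it there. The labelled cell type was not tested further. The level of mouse catalase was not analysed here.

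Endoglin was lower on both hcatTg arrays, with values of 8.40 and 8.71, against 9.57 and 10.15 on the wild type arrays. The arrays of the genotypes did not overlap, and the gap between the highest hcatTg and the lowest wild type value was 0.86. The mean was 8.55 ± 0.22 in hcatTg cells and 9.86 ± 0.41 in wild type cells (SD, n = 2 arrays each), a difference of -1.31. In linear terms, hcatTg cells had 44.5% of the wild type signal in the first array pair and 36.8% in the second. The first-pair difference depended on scaling: it was 2.25-fold lower on the deposited values and 1.76-fold lower once each array was centred on its median.

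Tgfb3 lay at 6.39 and 8.06 on the hcatTg arrays, against 8.91 and 10.00 on the wild type arrays. Its mean was 7.22 ± 1.18 in hcatTg cells and 9.45 ± 0.77 in wild type cells (SD, n = 2 arrays each), a difference of -2.23. The genotypes did not overlap here either, although the 2 hcatTg arrays stood 1.67 apart, which is more than the gap of 0.85 between the genotypes. Within the pairs hcatTg cells had 17.4% of the wild type signal in the first pair and 26.1% in the second. Without hcatTg array 1 the mean difference was -1.39, and without hcatTg array 2 it was -3.07.

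Jag1 had signals of 5.92 and 7.04 on the hcatTg arrays, against 7.71 and 9.11 on the wild type arrays. Again both hcatTg values lay below both wild type values, by at least 0.66. The means were 6.48 ± 0.79 in hcatTg cells and 8.41 ± 0.99 in wild type cells (SD, n = 2 arrays each), a difference of -1.92. Jag1 in hcatTg cells stood at 29.1% of the wild type signal in the first pair and at 23.9% in the second. Without wild type array 2 the mean difference was -1.22, and without wild type array 1 it was -2.63.

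**Figure D1:**
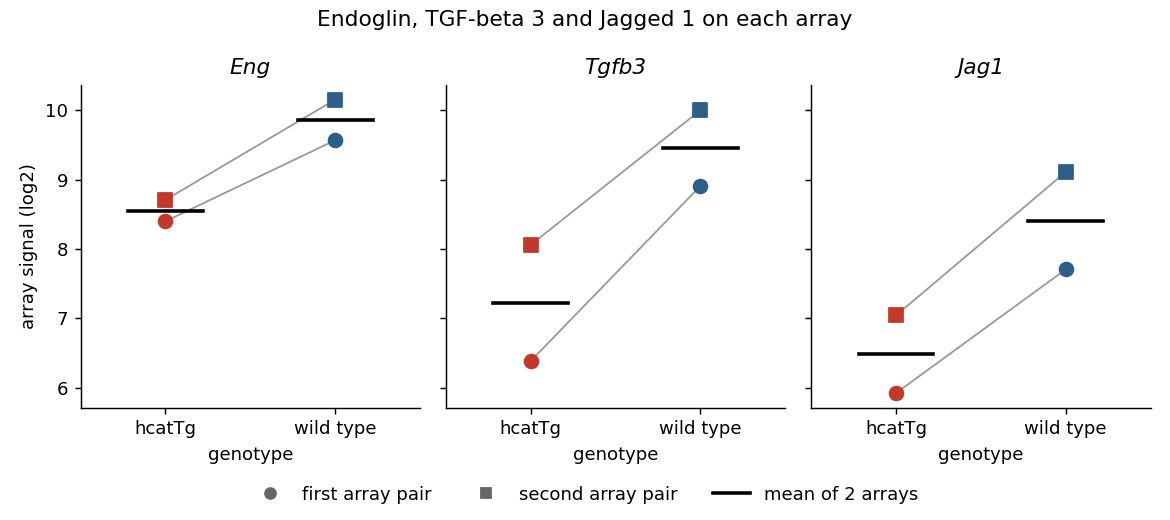
Signal (log2, y axis) of Eng, Tgfb3 and Jag1 on the hcatTg and wild type arrays (x axis), with circles for the first array pair, squares for the second, grey lines joining arrays of a pair and black bars for the mean of 2 arrays. The hcatTg end of every line is the lower one, and for Tgfb3 and Jag1 the second array of each genotype lies more than 1 log2 unit above the first.

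These differences chose the genes, so they are a description and not a test. All 3 genes were at least 2-fold lower in both pairs on the deposited values, as were 1.18% of all clusters, and all 3 had both hcatTg arrays below both wild type arrays, as did 17.8% of all clusters. After median centring 2 of the 3 were at least 2-fold lower in both pairs, as were 0.751% of all clusters, and after quantile normalization 2 of the 3 were, as were 0.793% of all clusters, Eng being the gene that dropped out. Both hcatTg arrays lay below both wild type arrays for all 3 genes under either scaling, as for 10.8% of all clusters after median centring and 13.0% after quantile normalization. In limma's fit over all clusters, 0 of the 3 had an adjusted p below 0.05 for a lower level, against 0.00562% of all clusters, and 3 of the 3 had an unadjusted p below 0.05, against 1.33% of all clusters that were lower at that p. When the array pair was added as a replicate block, 3 of 3 passed, against 2.15% of all clusters that were lower, but all clusters shared a single variance in that fit, so its p follows only the size of the difference, which is what chose the genes. With median centring added to the block 0 of 3 passed, against 0.0281% of all clusters, with limma adjusted p from 0.0635 to 0.194. The smallest p that an exact permutation test (two-sided) allows with 2 arrays per genotype is 0.333.

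The order of the 3 genes was not the same in both pairs. Tgfb3 had the largest difference in the first pair (-2.52, against -1.78 for Jag1 and -1.17 for Eng), where 0.143% of all clusters lay lower. Jag1 had the largest in the second pair (-2.07, against -1.94 for Tgfb3 and -1.44 for Eng), where 0.326% of all clusters lay lower. That order held after median centring and after quantile normalization. The difference moved from pair to pair by 0.58 for Tgfb3, -0.28 for Jag1 and -0.28 for Eng, second minus first.

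The authors' deposited table gives the first pair on another normalization, and there the signals were 9.04 in hcatTg against 10.33 in wild type for Eng, 6.72 against 9.42 for Tgfb3 and 6.54 against 8.39 for Jag1. In the authors' deposited table a negative fold stands for wild type over hcatTg, and its folds at the first and second time were -2.45 and -2.72 for Eng, -6.47 and -3.84 for Tgfb3, and -3.58 and -4.19 for Jag1. Ranked by the average fold among the 305 probe sets that table lists as lower, Tgfb3 was number 62, Jag1 number 99 and Eng number 223. The median average fold of those 305 was -2.96 in the authors' deposited table, so Tgfb3 and Jag1 lay beyond it and Eng short of it. That table's smallest folds, just inside its 2-fold limit, were those of Ugp2 (-2.28 and -2.00) and Foxf1 (-2.01 and -2.35).

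A contrast that did not choose the genes is that between the second and the first arrays. Tgfb3 was higher on the second array by 1.67 in hcatTg cells and by 1.09 in wild type cells, and Jag1 by 1.12 in hcatTg cells and 1.40 in wild type cells. Eng moved less, by 0.31 in hcatTg cells and 0.59 in wild type cells, where the median cluster moved by 0.60 in hcatTg cells and 0.21 in wild type cells. With genotype as a covariate, limma called Tgfb3 (1.38 ± 0.33, SE, adjusted p = 0.000288) and Jag1 (1.26 ± 0.33, SE, adjusted p = 0.00107) higher on the second arrays, and Eng did not pass (0.45 ± 0.33, SE, adjusted p = 0.348), while 27.2% of all clusters were called higher. That fit, too, gave all clusters one variance, and its p follows only the size of the difference. After median centring, Tgfb3 passed (0.94, limma adjusted p = 0.038) and Jag1 did not (0.82, limma adjusted p = 0.0604), with 11.1% of clusters called higher. After quantile normalization none of the 3 passed (limma adjusted p from 0.106 to 0.203, 2 of 3 higher at an unadjusted p below 0.05, against 15.8% of all clusters), and Eng changed sign to -0.40. Scaling and array pair cannot be told apart in this contrast on the deposited values.

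All 3 genes had the same order of arrays, lowest on hcatTg array 1, then hcatTg array 2, wild type array 1 and wild type array 2. Distances between their profiles were not scaled for the size of each gene's differences. They therefore follow in part the size of the genotype difference, which chose the genes. After each probe set's own mean was subtracted, Tgfb3 and Jag1 lay 0.54 log2 units apart (Euclidean distance over 4 arrays), where the median distance of the other 397 listed probe sets was 1.27 from Tgfb3 and 1.00 from Jag1. Seen from Tgfb3, Jag1 was number 9 of the 397, and seen from Jag1, Tgfb3 was number 37. Eng lay 1.38 from Tgfb3 and 1.02 from Jag1. Its 5 nearest probe sets were Arhgef28, Robo1, a receptor gene for Slit guidance cues, Wasf3, an actin regulator gene, Ms4a4d and Sgk1, a serum- and glucocorticoid-regulated kinase gene, at distances of 0.06 to 0.15. Nearest to Tgfb3 were Nexn, which encodes the actin-binding protein nexilin, Sulf1, a heparan sulfate sulfatase gene, Svep1, a matrix protein gene, Il1r1, an interleukin 1 receptor gene, and Gucy1a2, a guanylate cyclase subunit gene, at 0.31 to 0.45. Nearest to Jag1 were Cacna1g, a calcium channel gene, Nexn again, the chemokine gene Ccl7, the phosphodiesterase gene Pde1a and the vitamin D receptor gene Vdr, at 0.17 to 0.29. These distances rest on 4 arrays and on probe sets that were listed for the same genotype contrast, and after quantile normalization 2 of the 5 for Eng, 5 of 5 for Tgfb3 and 3 of 5 for Jag1 remained.

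**Figure D2:**
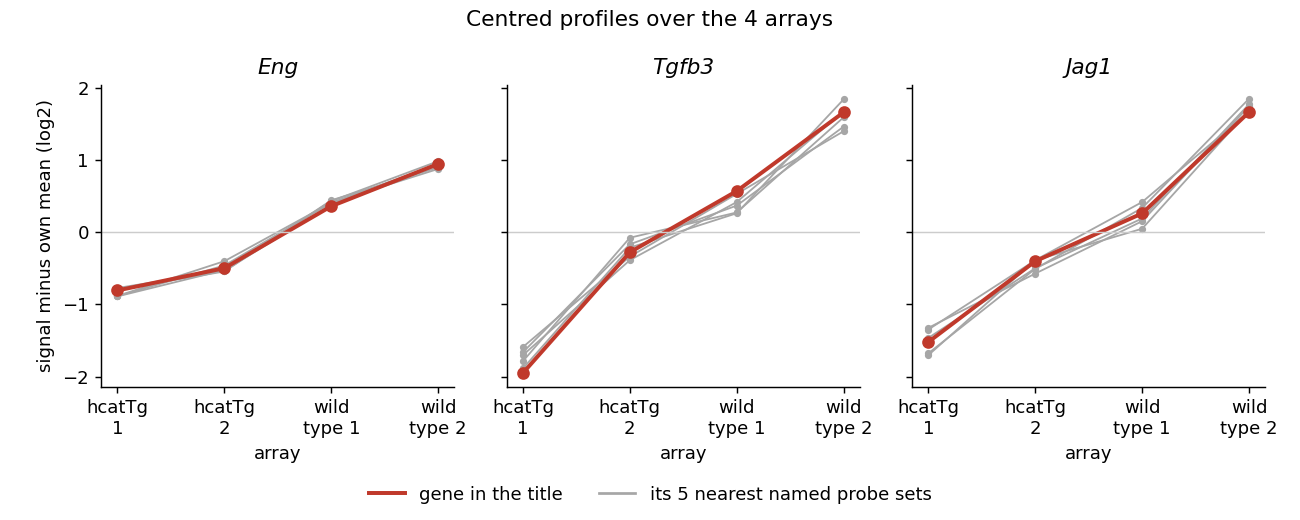
Signal minus the probe set's own mean (log2, y axis) on the 4 arrays (x axis) for Eng, Tgfb3 and Jag1 in red and the 5 nearest named probe sets of each in grey. The grey lines hug the Eng line, with distances of 0.06 to 0.15, and spread more around Tgfb3, at 0.31 to 0.45.

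Of 77 genes on the TGF-beta and BMP lists, 9 were named in the authors' deposited table, which names 1.12% of all clusters, and 6 of the 9 were lower and 3 higher in hcatTg cells. In the authors' deposited table as a whole, 76.6% of the probe sets were lower, so the split of the 9 lies near that of the table. Their median difference was -1.10, against -1.36 over the 398 listed probe sets and -0.18 over all clusters. The table was chosen on these arrays for differences of this size, so these counts do not show that the pathway as a whole differed, and genes it does not name were not analysed here. Among ligands, Inhbb, which encodes a subunit of activin and inhibin, ran opposite to Tgfb3, with 7.66 and 9.50 on the hcatTg arrays against 5.73 and 6.64 on the wild type arrays. It was higher by 1.93 in the first pair and 2.86 in the second.

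The receptor genes named in the table went both ways. Acvrl1, which encodes the endoglin partner ALK1, was lower like Eng, with 6.14 and 6.98 on the hcatTg arrays against 7.13 and 8.14 on the wild type arrays. Bmpr1b, a type I receptor gene for bone morphogenetic proteins, had 4.70 and 5.52 on the hcatTg arrays against 5.85 and 6.58 on the wild type arrays. In contrast, Tgfbr2, the type II receptor gene for TGF-beta, was higher, with 9.09 and 10.35 on the hcatTg arrays against 7.98 and 9.03 on the wild type arrays. Tgfbr3, which encodes betaglycan, the other co-receptor of the family and a relative of endoglin, had 9.19 and 9.84 on the hcatTg arrays against 7.23 and 8.61 on the wild type arrays. Acvrl1 and Bmpr1b had both hcatTg arrays below both wild type arrays, as did 17.8% of all clusters. Tgfbr2 and Tgfbr3 had both hcatTg arrays above both wild type arrays, and the share of all clusters that did was not computed. For Tgfbr2 the lower hcatTg value (9.09) lay close to the higher wild type value (9.03). Listing at 2-fold or more in both pairs largely fixes whether the genotypes overlap, so this is no result about the receptors. The mean differences were -1.07 for Acvrl1, -1.10 for Bmpr1b, 1.22 for Tgfbr2 and 1.59 for Tgfbr3.

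Of the extracellular regulators, 2 of 19 were named in the table, which names 1.12% of all clusters. Both were lower, as were 76.6% of all listed probe sets. Itgb8, which encodes an integrin subunit that activates latent TGF-beta, had 4.90 and 5.34 on the hcatTg arrays against 6.78 and 6.76 on the wild type arrays. Its hcatTg values lay below the medians of those arrays (5.40 and 6.00). Fst, which encodes the activin-binding protein follistatin, had 5.72 and 7.65 on the hcatTg arrays against 7.05 and 8.92 on the wild type arrays, so its genotypes overlapped although it was lower within each pair, by 1.34 and 1.27 log2 units in size. The lists of BMP ligands, SMADs and target genes had 0 members in the table.

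Of 40 genes on the Notch lists, 4 were named in the table, which names 1.12% of all clusters. Of the 4, 3 were lower and 1 higher in hcatTg cells, beside the 76.6% of listed probe sets that were lower. Jag1 is itself one of the 4, and the lists were chosen with earlier results of these data known. These counts therefore do not show that the Notch pathway as a whole differed. Beside Jag1, the receptor gene Notch1 was lower, with 5.59 and 6.24 on the hcatTg arrays against 6.76 and 7.74 on the wild type arrays. Dtx4, which encodes a Deltex ubiquitin ligase of the Notch pathway, had 6.84 and 6.91 on the hcatTg arrays against 8.23 and 9.33 on the wild type arrays. Dlk1, which encodes a Delta-like protein of the same family as the Notch ligands, was higher by 3.87 in the first pair and 3.85 in the second. In all, 10 further genes of both pathways were named, 6 lower and 4 higher. The 13 genes had one direction in both pairs under each scaling, which their listing at 2-fold or more largely fixes and which is therefore no sign of stability.

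**Figure D3:**
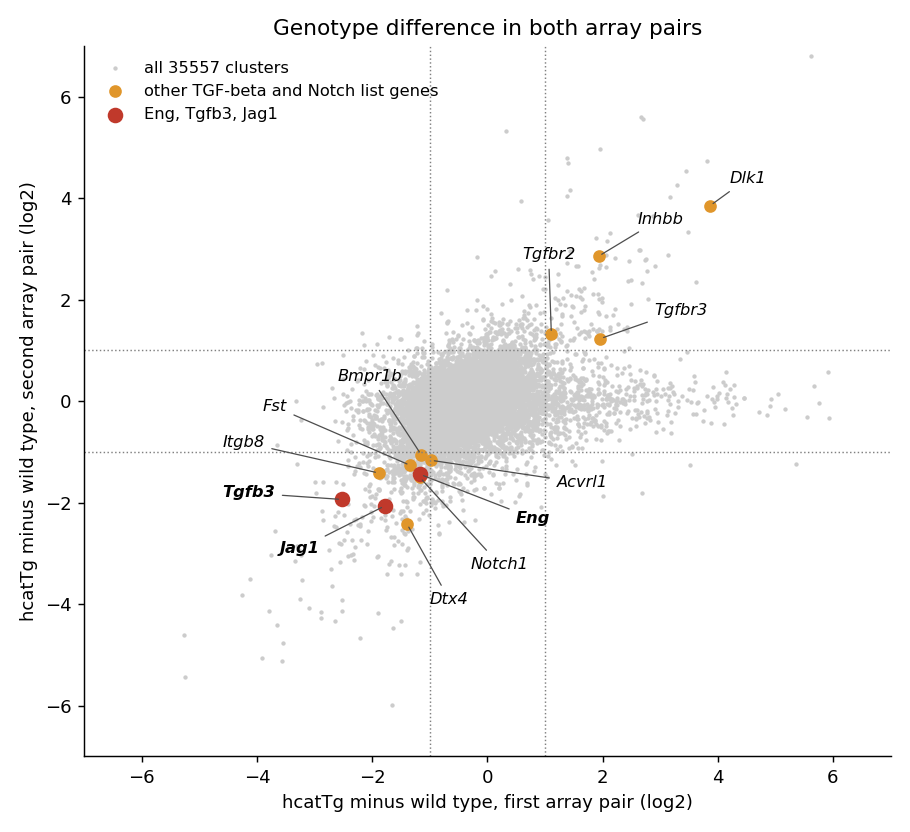
The hcatTg minus wild type difference (log2) in the first array pair (x axis) and the second (y axis) for all 35557 clusters in grey, Eng, Tgfb3 and Jag1 in red and the 10 other named TGF-beta and Notch list genes in orange, with dotted lines at a 2-fold difference. Dlk1, Inhbb, Tgfbr2 and Tgfbr3 lie at the upper right, and the 3 genes lie at the lower left with Acvrl1, Bmpr1b, Itgb8, Fst, Notch1 and Dtx4.

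**Figure D4:**
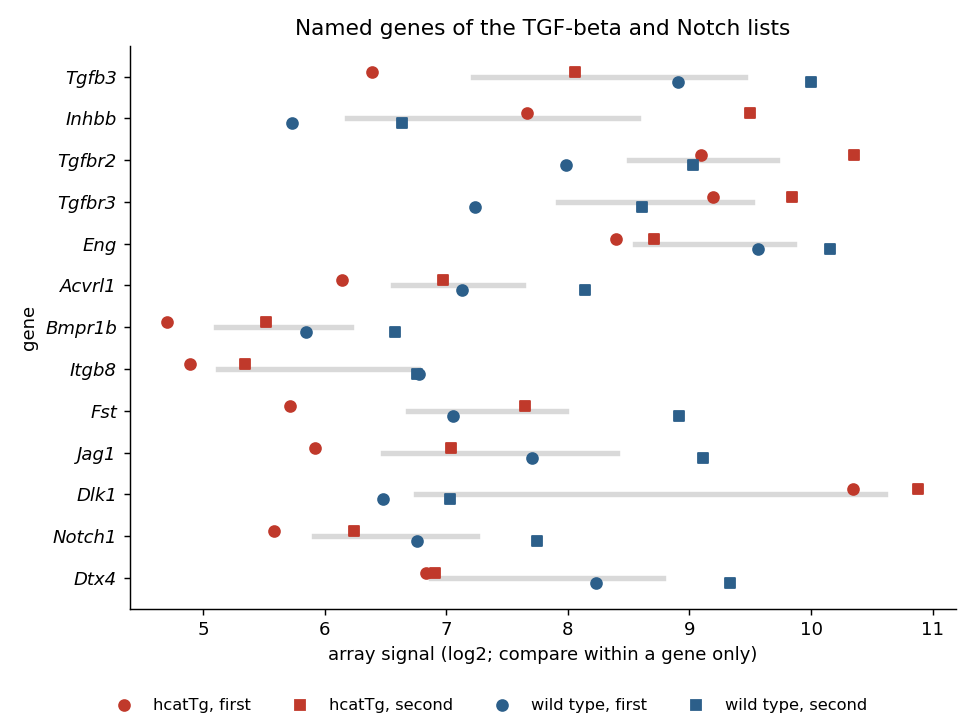
Signal (log2, x axis) of the 13 named TGF-beta and Notch list genes (y axis) on each hcatTg array in red and each wild type array in blue, with circles for the first pair, squares for the second and a grey bar joining the genotype means. Of the 13, Fst is the gene whose red and blue points overlap.

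Markers of other cell types and sex-linked genes moved along the same comparison, and in bulk RNA fewer cells of a type and less RNA per cell cannot be told apart. Beside the counts that follow, the authors' deposited table names 1.12% of all clusters, and 76.6% of its probe sets were lower. The lists were chosen with earlier results of these data known, so these counts do not show which cell types differed. Of 13 smooth muscle and mural markers, 5 were named (Cnn1, Actg2, Lmod1, Rgs5 and Pdgfrb) and all were lower. Their summed linear signals were 397 and 1501 on the hcatTg arrays against 1331 and 4605 on the wild type arrays. Pdgfrb made up 255 and 1139 of the hcatTg sums and 884 and 2314 of the wild type sums. Its genotypes overlapped, although it was lower within each pair. Of 18 endothelial markers, 2 were named, Kdr and Eng. Kdr, a receptor gene for vascular endothelial growth factor, was higher by 1.05 in the first pair and 3.57 in the second (a mean of 2.31, and 1.53 without hcatTg array 2), while Eng was lower. Their summed linear signal was 440 and 720 on the hcatTg arrays against 808 and 1163 on the wild type arrays. Eng, which was chosen on this contrast, made up 338 and 418 of the hcatTg sums and 758 and 1137 of the wild type sums. That sum is therefore no separate measure of endothelial signal. Fibroblast and matrix markers (4 of 12 named, 2 lower) summed to 5279 and 13080 on the hcatTg arrays against 1196 and 3631 on the wild type arrays, a sum carried on the hcatTg arrays by Thbs2 and Mmp2, which were higher, while Col5a1 and Fbln1 were lower. Mesothelial and epithelial markers (4 of 11 named, 2 lower) summed to 1378 and 967 on the hcatTg arrays against 1537 and 1914 on the wild type arrays, and macrophage and leukocyte markers (3 of 9 named, 2 lower) to 342 and 668 on the hcatTg arrays against 188 and 422 on the wild type arrays. Cd53 made up 305 and 618 of the hcatTg sums, while Lcp1 (-2.33) and Lyz2 (-1.88) were lower. In the mesothelial and epithelial list, Upk3b and Wt1 were the lower genes, and Msln and Upk1b the higher ones. All 5 sex-linked genes were named: Xist lay at 10.33 and 11.45 on the hcatTg arrays against 4.71 and 4.66 on the wild type arrays, and the 4 Y-linked genes summed to 61.4 and 75.8 on the hcatTg arrays against 851 and 2022 on the wild type arrays. Some of these genes were low on the hcatTg arrays: Lyz2 lay at 3.63 and 4.55 and Eif2s3y at 3.57 and 3.69. Those values are below the lower quartiles of the hcatTg arrays (4.17 and 4.625). The part of these cell types in the differences of Eng, Tgfb3 and Jag1 was not tested. The sex of the cells and the transgene cannot be told apart in this design.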

How the data were processed

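The authors deposited log2 gene-level signals of 4 arrays, made with Affymetrix Expression Console per the submitters' processing notes, and a table of 398 probe sets with RMA (robust multi-array average) log2 signals of the first arrays, a linear ratio and signed fold scores, per the file headers. The sources used here give no version, annotation or genome build. Differences between the second arrays equal the authors' second fold, once that is put on a log2 scale, to within 9e-05, which fixed the scale. The first-array differences departed from the authors' first fold by a median of 0.129 and at most 1.05 (log2), so that table's first signals are on another normalization. Gene names came only from that table, 385 of 398 matched by accession to RefSeq. Precision is limited by the number of arrays.

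Computed here were values per array, pair differences, limma fits (version 3.58.1, R 4.3.3, lmFit and eBayes, Benjamini-Hochberg over 35557 clusters, threshold 0.05), tested on simulated data, and Euclidean distances. Alternatives were median centring, quantile normalization, the authors' signals, the replicate block, an intensity trend, a filter on level and leaving out each array. The pairs come from the authors' table headings. Same-pair deviations from the group means correlated at r = 0.690 across clusters. Whole arrays correlated at r = 0.969 within the first pair and 0.984 within the second. Between arrays of one genotype, r was 0.973 for hcatTg and 0.950 for wild type. The part of array scaling in these values was not tested. Members, 15 gene lists, the rule for named genes (the 3 genes, named list members, the 5 nearest probe sets of each gene and the 2 smallest listed folds) and tests were chosen with earlier results of these data known. Probe sets were kept whether or not their signal was above background, which was not analysed here.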

Additional observations from a re-analysis of the deposited data

How the results depend on the processing

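The differences of Eng, Tgfb3 and Jag1 were -1.12, -2.05 and -1.74 with median centring, -1.19, -2.12 and -1.80 with quantile normalization, and -1.37, -2.32 and -1.95 with the authors' signals. The replicate block cannot move a balanced mean difference, and groups that do not overlap must stay lower when one array is left out, so neither speaks for stability. Leaving out one array gave -1.60 to -1.01 for Eng, -3.07 to -1.39 for Tgfb3 and -2.63 to -1.22 for Jag1. The number of clusters limma called between genotypes was not stable: 3 on the deposited values, 42 with an intensity trend, 1161 with the replicate block (where all clusters share one variance), 0 after median centring (975 at an unadjusted p below 0.05) and 0 after quantile normalization (1253). Chosen after seeing the data, the block with median centring gave 24 and the block with quantile normalization 0 (4189 by the unadjusted p). With single arrays left out the count ran from 0 to 192. It was 103 without wild type array 1 and 192 without wild type array 2, and 0 without either hcatTg array (440 without the first and 1340 without the second by the unadjusted p), where the lone array is taken to vary like the other group. Between array pairs, limma called 9820 clusters, 5990 after median centring and 0 after quantile normalization (12588 at an unadjusted p below 0.05). At least 2-fold in one direction in both pairs were 553 clusters, 75.8% of them lower, against 445 (60.0% lower) with median centring and 463 (60.9%) with quantile normalization. Of the 5 nearest probe sets, a comparison added after seeing the data, quantile normalization kept 2 for Eng, 5 for Tgfb3 and 3 for Jag1. The cause of these changes was not tested.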
